A study of Rattus norvegicus with 20 samples.

Results

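Expression of 9 genes of the endothelium and of vascular growth was examined in the supraoptic nucleus (SON) of the rat, a hypothalamic nucleus that makes vasopressin and oxytocin. The genes were Vegfa, its receptors Kdr and Flt1, the angiopoietin receptor Tek, Notch4, and the cell junction and adhesion genes Cdh5, Cldn5, Esam and Pcdh12. They were looked up by gene symbol among 32402 Ensembl genes, and 9 of the 10 symbols searched were found (Pecam1 was not analysed here). RNA was sequenced from SON punches of 20 male Wistar Han rats, 5 in each of 4 groups, which were adult (3 months) or aged (18 months) and either euhydrated (EH), with water, or dehydrated (DH). DH is given as 2 days without water in the sample labels and as 72 h in the study's methods. The comparisons were aged EH with adult EH, referred to as ageing, adult DH with adult EH, and aged DH with aged EH. Ageing shares its adult EH rats with the first DH comparison and its aged EH rats with the second, so the values of the comparisons are given side by side and are not independent.

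Blood vessels of the brain are lined by endothelial cells, which are sealed to each other by adherens and tight junctions. Vegfa, a secreted growth factor, acts on these cells mainly through Kdr, while Flt1 binds it with high affinity and limits the amount that reaches Kdr. Angiopoietins act through Tek on vessel stability, and Notch receptors take part in vessel patterning and arterial identity. The SON is known as a densely vascularised nucleus.

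Start site windows are shown for the genes of the receptors and the ligand whose expression rose in adult DH (Kdr, Notch4 and Vegfa). They are RefSeq windows of assembly GRCr8, from 250 bases before to 50 bases after the annotated start site, written 5′ to 3′ on the gene's strand. Capitals mark matches, on either strand, to any of 5 short motifs. The ETS motif was searched for as GGAAG, and this core is shared by sites of ETS factors such as Erg. The RBPJ motif, of the DNA-binding partner of Notch, was searched for as GTGGGAA. The SP1 motif was searched for as GGGCGG. The hypoxia motif, a core of sites of hypoxia-inducible factors, was searched for as ACGTG. The Gata family motif was searched for as AGATAA.
Kdr, chr14:32571813-32572112, plus strand: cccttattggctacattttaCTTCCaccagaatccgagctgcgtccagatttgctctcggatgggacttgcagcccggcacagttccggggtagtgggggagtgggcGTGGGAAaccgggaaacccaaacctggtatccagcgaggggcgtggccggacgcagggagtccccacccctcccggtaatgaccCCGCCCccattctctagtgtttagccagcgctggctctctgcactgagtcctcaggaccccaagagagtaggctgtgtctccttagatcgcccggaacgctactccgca
Notch4, chr20:4189023-4189322, minus strand: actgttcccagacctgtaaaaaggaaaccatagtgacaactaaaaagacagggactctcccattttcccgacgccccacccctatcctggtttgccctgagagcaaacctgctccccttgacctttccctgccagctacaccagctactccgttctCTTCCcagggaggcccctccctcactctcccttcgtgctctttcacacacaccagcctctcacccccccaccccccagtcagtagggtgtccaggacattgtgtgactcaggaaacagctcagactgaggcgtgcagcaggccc
Vegfa, chr9:22452604-22452903, plus strand: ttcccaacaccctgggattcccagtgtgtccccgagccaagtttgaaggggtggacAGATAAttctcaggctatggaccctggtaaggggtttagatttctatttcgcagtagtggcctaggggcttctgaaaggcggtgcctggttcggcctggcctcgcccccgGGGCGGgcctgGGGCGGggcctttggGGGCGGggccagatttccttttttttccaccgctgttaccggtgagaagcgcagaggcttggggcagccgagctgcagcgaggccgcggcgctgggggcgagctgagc

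The Kdr window held 1 match each to the ETS motif, at base -230 from the start site, to the RBPJ motif, at -143, and to the SP1 motif, at -59. The window of Notch4 held 1 match to the ETS motif, at -94. The Vegfa window held 3 matches to the SP1 motif, at -84, -73 and -58, and 1 to the Gata family motif, at -194. A second annotated Vegfa window, chr9:22460028-22460327, held 2 matches to the ETS motif. Windows were found for 6 of the 9 genes. Of these, Flt1 held 3 matches to the ETS motif and 3 to the SP1 motif, Pcdh12 held 2 to the ETS motif, and Cldn5 held 1 to the SP1 motif. None of the 7 windows held the hypoxia motif. Of 33465 RefSeq windows of the same length, 70.1% held the ETS motif, 33.1% the SP1 motif, 19.3% the hypoxia motif, 11.6% the Gata family motif and 6.29% the RBPJ motif. The ETS and RBPJ motifs can overlap. The matches are a description of letters and say nothing on binding.

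The values are the authors' counts per gene divided by size factors, which were estimated separately in a table for each comparison (normalized counts). Whole reads could be recovered from them, and each library held between 24268398 and 30348118 reads on genes. The 2 genes of the labelled tissue, Avp and Oxt, summed to between 193900 and 473600 normalized counts in each rat. Aged DH replicate 6 was the lowest of its group for 7 of these 9 genes, and results that rest on it are given with and without it. Leaving it out raises the aged DH level of those 7 genes by construction, so such fits are no separate support for a rise. Each library is from a separate rat by the study's list of animals.

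Ageing was accompanied by lower expression of the junction gene Cdh5 and the receptor Kdr, and by higher expression of Notch4. The ageing call of Notch4 was lost in 9 of the 10 fits that left out a rat. DH in adult rats was accompanied by higher expression of Pcdh12, Notch4, Kdr and Vegfa. In aged rats only Pcdh12 passed the test after DH. By limma, on log2 of the normalized count plus 1 with a Benjamini-Hochberg adjusted threshold of 0.05, 3 of the 9 genes were DEGs in ageing, where 5.99% of 15369 genes were called. Of these, 1 was higher and 2 were lower with age, beside 2.69% and 3.30% of all genes. In adult DH 4 of 9 were DEGs, all with higher expression, where 12.7% of 15280 genes were called, 7.67% as higher and 4.99% as lower. In aged DH 1 of 9 was a DEG, with higher expression, where 7.29% of 15346 genes were called, 4.05% as higher and 3.25% as lower. In edgeR fitted to the reads of all 20 libraries, 4, 3 and 4 of the 9 genes were called in ageing, adult DH and aged DH, beside 7.65%, 12.4% and 10.2% of the genes tested. The median log2 fold change (LFC) of the 9 genes was -0.11 in ageing, 0.15 in adult DH and 0.14 in aged DH, while the median of all genes tested was between -0.0074 and 0.00033. In punched tissue, fewer cells of a type and less RNA per cell cannot be told apart.

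**Figure D1:**
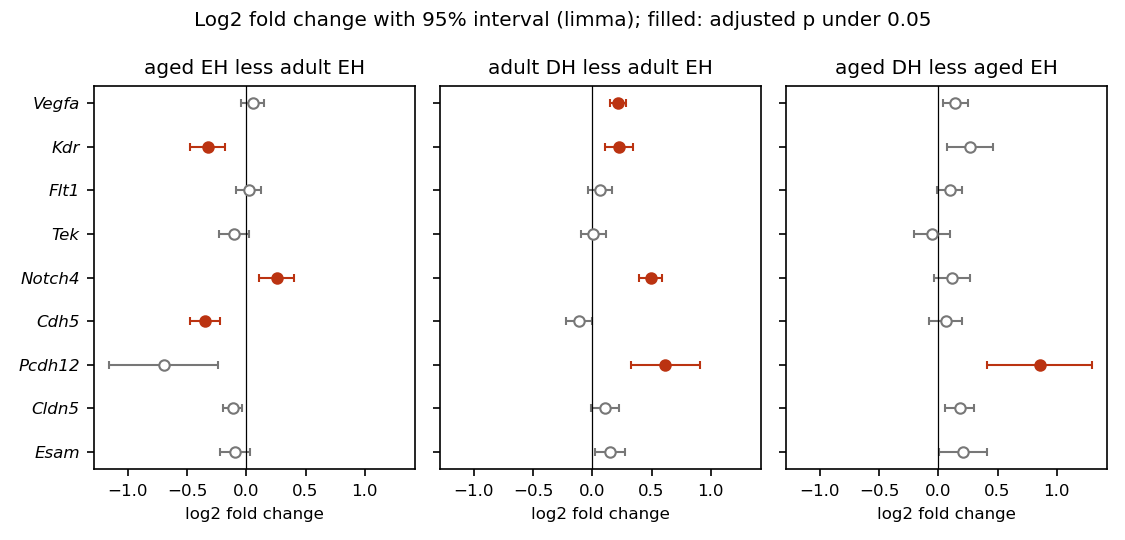
LFC of the 9 genes (horizontal axis, log2 scale) in ageing, adult DH and aged DH, with 95% intervals from limma. Filled points passed an adjusted p of 0.05. The widest intervals are those of Pcdh12, the gene with the fewest counts.

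Whether DH acted differently at the 2 ages was tested by subtracting the LFC of adult DH from that of aged DH in a fit over all 20 rats. None of 15326 genes was called by limma, nor by edgeR on the reads of all 20 libraries, while 1522 genes (9.93%) had an unadjusted p under 0.05 and DESeq2 on the same reads called 55. Of the 9 genes, 1 had an unadjusted p under 0.05, and this was Notch4.

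Vegfa rose in adult DH. Its normalized counts were 3836, 3704, 3878, 3623 and 3748 in the adult EH rats and 4449, 4444, 4522, 4179 and 4198 in the adult DH rats. Every DH rat was above every EH rat, and such a lack of overlap was seen in 10.9% of all genes tested and in 3 of these 9 genes. The LFC was 0.21 (SE 0.032, limma adjusted p = 0.000702), a 16% increase. In aged rats the counts were 3851, 4102, 4527, 4118 and 3741 in EH and 4319, 4746, 4676, 4313 and 4392 in DH. Here aged EH replicate 4 reached into the range of the DH rats, and the LFC of 0.14 (SE 0.0496) did not pass the limma test (adjusted p = 0.0988). It passed in 1 of the 10 fits that left out a rat, without aged EH replicate 4 (LFC 0.18, limma adjusted p = 0.0201). This was the highest EH rat, so leaving it out raises the LFC by construction. The difference also passed in edgeR fitted to all 20 libraries (adjusted p = 0.0377), but not in DESeq2. The responses at the 2 ages differed by -0.07 (95% interval -0.20 to 0.06, limma adjusted p = 0.764). With age the LFC of Vegfa in EH was 0.05 (limma adjusted p = 0.566).

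Kdr, the main signalling receptor for Vegfa, was lower in aged EH than in adult EH rats. The counts were 688.1, 573.5, 693.1, 538.9 and 616.8 in aged EH and 782.2, 825.5, 783.5, 769.6 and 727.3 in adult EH. All aged rats were below all adult rats, as was the case for 2 of these 9 genes and in either direction for 6.38% of the genes tested. The LFC was -0.33 (SE 0.0701, limma adjusted p = 0.0152), a change of -20.3%. In adult DH Kdr rose, with an LFC of 0.23 (SE 0.055, limma adjusted p = 0.016). The adult DH rats had 896.8, 873.4, 859.3, 962.0 and 782.1 counts and the adult EH rats 750.6, 793.2, 750.3, 738.3 and 697.7. Only adult DH replicate 5 fell below the highest EH rat. In edgeR over all 20 libraries the adult DH difference did not pass (adjusted p = 0.0588).

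In aged rats Kdr had an LFC of 0.26 in DH (SE 0.0905, limma adjusted p = 0.0976). Of the aged DH rats, replicate 6 had 599.9 counts and the others 750.5 to 815.7, all of these above the aged EH range of 538.4 to 692.9. Without aged DH replicate 6 the LFC was 0.34 (limma adjusted p = 0.0157). The test also passed with all rats in DESeq2 (adjusted p = 0.0456) and in edgeR over 20 libraries (adjusted p = 0.034). The responses of Kdr at the 2 ages differed by 0.04 (95% interval -0.20 to 0.27).

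Flt1, which binds Vegfa and acts largely as a decoy, passed no test. Its LFC was 0.02 in ageing (95% interval -0.08 to 0.12), 0.07 in adult DH (-0.03 to 0.17) and 0.09 in aged DH (-0.01 to 0.20). Tek, the receptor for angiopoietins, had an LFC of -0.11 in ageing (95% interval -0.23 to 0.02), 0.01 in adult DH (-0.10 to 0.11) and -0.05 in aged DH (-0.21 to 0.10). The groups of both genes overlapped in each comparison.

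Notch4, a Notch receptor found mainly in endothelial cells, had the lowest adjusted p of the 9 genes in adult DH. The counts were 460.0, 498.0, 473.0, 486.1 and 507.6 in adult EH and 673.3, 665.2, 677.8, 678.0 and 719.3 in adult DH. The groups were far apart, and the 5 rats of each group lay close together. The LFC was 0.49 (SE 0.0456, limma adjusted p = 1.22e-05), a 40.7% increase. The aged rats had 674.8, 592.7, 522.8, 583.8 and 646.8 counts in EH and 648.5, 701.1, 664.0, 651.8 and 598.9 in DH. These groups overlapped, and the LFC was 0.12 (SE 0.0691, limma adjusted p = 0.369).

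The response of Notch4 was smaller in aged than in adult rats by 0.38 on the log2 scale (LFC -0.38, 95% interval -0.55 to -0.21). This difference did not pass limma (adjusted p = 0.188) or edgeR over 20 libraries (adjusted p = 0.165), and it passed DESeq2 on the same reads (adjusted p = 0.0162). In EH, Notch4 was higher in aged rats, with an LFC of 0.26 (SE 0.0674, limma adjusted p = 0.0412). That call was lost when any of 9 of the 10 rats was left out, and of these 10 fits it held only without aged EH replicate 4. It was also lost in limma with no filter on low values (adjusted p = 0.0525) and without the trend (adjusted p = 0.078). The aged EH rats had 523.0 to 675.8 counts and the adult EH rats 479.4 to 529.1, so that 1 aged rat lay within the adult range.

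**Figure D2:**
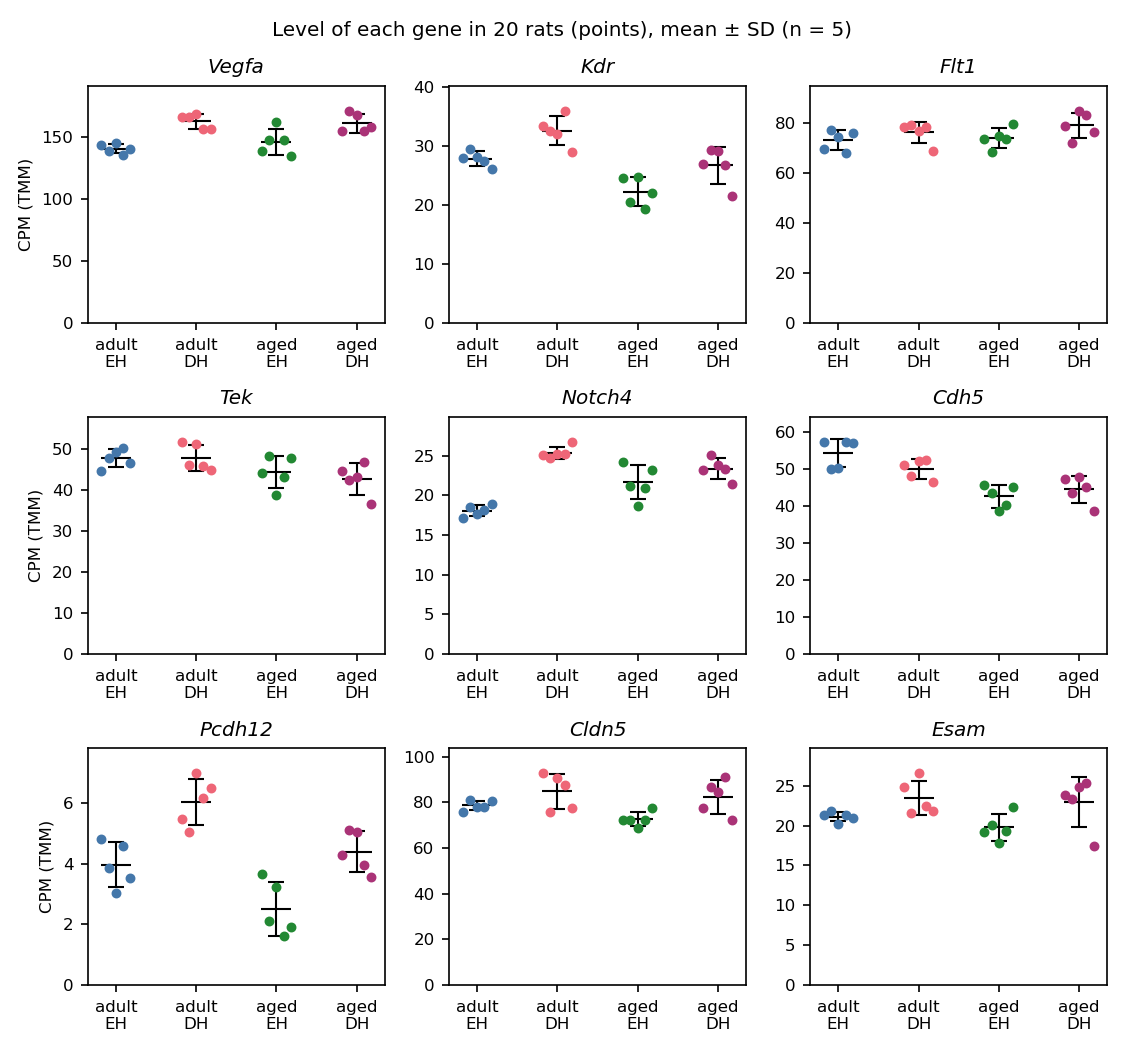
CPM (vertical axis, reads scaled to library size by TMM, from 0) in each of the 20 rats for the 9 genes, with the group mean ± SD (n = 5). Adult EH has the lowest Notch4 mean of the 4 groups, aged EH has the lowest Kdr and Pcdh12 means, and the aged groups have the lowest Cdh5 means.

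Pcdh12, a protocadherin found at endothelial cell contacts, had the largest LFCs of the 9 genes and the fewest reads. In adult rats it had 128.9, 103.8, 80.69, 122.5 and 94.57 counts in EH and 147.0, 135.7, 187.3, 165.0 and 174.8 in DH. The groups did not overlap, and the LFC was 0.62 (SE 0.135, limma adjusted p = 0.00925), a 53.3% increase. In aged rats it had 102.4, 58.97, 90.79, 45.43 and 53.13 counts in EH and 120.4, 142.7, 140.5, 110.8 and 98.81 in DH. Only DH replicate 6 lay below the highest EH rat, and the LFC was 0.85 (SE 0.206, limma adjusted p = 0.0223). None of the 9 genes separated the aged groups fully, which 7.05% of the genes tested did.

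The aged DH call of Pcdh12 was lost, with an adjusted p of 0.0504 to 0.0576 by limma, when any of 5 of the 10 rats was left out. These were aged EH replicates 2, 5 and 6 and aged DH replicates 2 and 3. The difference between the ages was 0.24 (95% interval -0.31 to 0.78, limma adjusted p = 0.821), an interval wide enough to hold a response in aged rats that is either smaller or larger than in adult rats. In EH the LFC with age was -0.70 (SE 0.214), from a mean of 110.6 ± 20.6 (SD, n = 5) to 70.27 ± 24.9 (SD, n = 5). It did not pass limma with all rats (adjusted p = 0.0749). By limma it passed in 1 of the 10 fits that left out a rat, without aged EH replicate 1 (LFC -0.85, adjusted p = 0.0268). It also passed DESeq2 (adjusted p = 0.0374) and edgeR over 20 libraries (adjusted p = 0.0329).

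Cdh5, which encodes VE-cadherin, the main adhesion molecule of endothelial adherens junctions, fell with age. The counts were 1276, 1215, 1083, 1122 and 1262 in aged EH and 1597, 1398, 1400, 1597 and 1591 in adult EH, with no overlap. The LFC was -0.35 (SE 0.0588, limma adjusted p = 0.00404), a change of -21.4%, and the call held when any rat was left out. DH gave LFCs of -0.11 in adult rats (limma adjusted p = 0.186) and 0.06 in aged rats (limma adjusted p = 0.655). The difference between these responses was 0.17 (95% interval -0.01 to 0.35, limma adjusted p = 0.521).

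Cldn5, the main claudin of tight junctions at the blood-brain barrier, had LFCs of -0.11 in ageing, 0.11 in adult DH and 0.18 in aged DH. None passed limma with all rats (adjusted p-values of 0.0916, 0.216 and 0.0709). The ageing difference passed in 1 of the 10 fits that left out a rat, without aged EH replicate 6 (LFC -0.14, limma adjusted p = 0.0369). It did not pass in edgeR over 20 libraries (adjusted p = 0.266). The aged DH rats had 2174, 2413, 2354, 2551 and 2020 counts of Cldn5. The aged EH rats had 2019, 2018, 1922, 2014 and 2155, so that only DH replicate 6 fell within the EH range. Without that rat the aged DH difference passed (LFC 0.23, limma adjusted p = 0.0129), as it did with all rats in DESeq2 (adjusted p = 0.0311) and in edgeR over 20 libraries (adjusted p = 0.048).

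Esam, an immunoglobulin-like adhesion molecule of tight junctions, had LFCs of -0.10 in ageing, 0.15 in adult DH and 0.21 in aged DH, with limma adjusted p-values of 0.404, 0.128 and 0.217. In aged DH 4 rats had 651.1 to 706.7 counts, above the EH range of 498.8 to 622.0, and replicate 6 had 486. Without replicate 6 the LFC was 0.30 (limma adjusted p = 0.0126). With Cldn5, Kdr and Pcdh12, this makes 4 of the 9 genes called in aged DH when that rat was left out. That fit called 1186 of all genes, beside 1119 with all rats. The rat was the lowest of aged DH for each of these 4 genes, so leaving it out raises their LFCs by construction. Cldn5, Kdr and Esam passed in 1 of the 10 fits that left out a rat.

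On a scale common to all 20 libraries (CPM, reads scaled to library size by TMM), which was chosen after the data were seen, the 4 groups could be put in order. Notch4 had 18.1 ± 0.708 CPM in adult EH, 21.7 ± 2.14 in aged EH, 23.4 ± 1.32 in aged DH and 25.4 ± 0.75 in adult DH (mean ± SD, n = 5). By edgeR the first 2 groups differed (adjusted p = 0.00873), and the aged groups did not pass (adjusted p = 0.263). Aged DH did not pass against adult DH (adjusted p = 0.185). The mean level of Notch4 in aged EH lay between the means of the adult groups, and aged EH was not tested against adult DH.

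Kdr had 22.2 ± 2.44 CPM in aged EH, 26.7 ± 3.13 in aged DH, 27.8 ± 1.26 in adult EH and 32.6 ± 2.47 in adult DH (mean ± SD, n = 5). The middle pair overlapped and was not tested. The 2 DH groups differed by an LFC of -0.28 with age (edgeR adjusted p = 0.0192), a comparison in which 12.3% of 15326 genes were called. Pcdh12 followed the order aged EH (2.51 ± 0.891), adult EH (3.96 ± 0.737), aged DH (4.39 ± 0.681) and adult DH (6.03 ± 0.771), in the same unit and with n = 5. Its level with age under DH had an LFC of -0.46 (edgeR adjusted p = 0.0875).

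Cdh5 was ordered by age, with 42.6 ± 3.05 CPM in aged EH, 44.5 ± 3.73 in aged DH, 50.0 ± 2.72 in adult DH and 54.3 ± 3.82 in adult EH (mean ± SD, n = 5). Between the DH groups its LFC with age was -0.17 (edgeR adjusted p = 0.0705). Vegfa was ordered by hydration, with 140 ± 3.9 and 146 ± 10.6 CPM in adult and aged EH and 162 ± 5.97 and 161 ± 7.58 in adult and aged DH (mean ± SD, n = 5). Its LFC with age under DH was -0.01 (edgeR adjusted p = 0.877).

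Other genes of the same pathways were taken from lists, and in ageing, adult DH and aged DH the counts are to be read beside 5.99%, 12.7% and 7.29% of all genes called. Of 6 further VEGF ligands and receptors tested, Nrp1, a co-receptor of Kdr, was the only one called in all 3 comparisons, with LFCs of -0.23, 0.18 and 0.23 (limma adjusted p = 0.0345, 0.0309 and 0.0183). Nrp2, a related co-receptor, fell by 0.24 on the log2 scale in adult DH (LFC -0.24, limma adjusted p = 0.0173). Of 5 genes of the angiopoietin and Tie system, Angpt2, a context-dependent antagonist of Tek, fell with age (LFC -0.60, limma adjusted p = 0.00154) and rose in adult DH (LFC 0.41, limma adjusted p = 0.00559). Angpt1, the agonist of Tek, was lower in DH in adult rats (LFC -0.31, limma adjusted p = 0.0106) and in aged rats (LFC -0.31, limma adjusted p = 0.0228).

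Of 10 other Notch pathway genes, 2 fell with age, Notch1 (LFC -0.19) and the target gene Heyl (LFC -0.22). In adult DH the ligands Dll4 (LFC 0.41, limma adjusted p = 0.0393) and Jag2 (LFC 0.29, limma adjusted p = 0.000349) rose and Heyl fell (LFC -0.20). In aged DH Jag2 alone was called (LFC 0.25, limma adjusted p = 0.00581).

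Of 30 other endothelial identity genes tested, 1 rose and 3 fell with age, 6 rose in adult DH and 4 rose in aged DH. With age Plvap, a protein of endothelial fenestrae, rose (LFC 0.57), while Cd93, Aplnr and Adgrl4 fell (LFCs of -0.62, -0.59 and -0.42). The largest LFCs in DH were those of Icam2, an endothelial adhesion molecule, with 0.85 in adult rats (limma adjusted p = 6.61e-05) and 0.91 in aged rats (limma adjusted p = 0.00023). In adult DH it was followed by Cd93 (LFC 0.44), Cd34 (LFC 0.43) and Erg (LFC 0.33), and in aged DH by Ushbp1 (LFC 0.34), the apelin gene Apln (LFC 0.31) and Ramp2 (LFC 0.24). The list medians were -0.05, 0.08 and 0.09 in ageing, adult DH and aged DH.

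Of 15 genes of blood-brain barrier transport and its regulation, 5 rose in adult DH and 3 in aged DH, and none fell. The thiamine transporter Slc19a3 (LFC 0.99), the efflux pump Abcg2 (LFC 0.80), the amino acid transporter Slc7a5 (LFC 0.34) and the glucose transporter Slc2a1 (LFC 0.29) led in adult DH. In aged DH the called genes were the lipid transporter Mfsd2a (LFC 0.43), Slc7a5 (LFC 0.31) and Slc2a1 (LFC 0.26). With age 2 rose, Slc19a3 (LFC 0.66) and Abcg2 (LFC 0.62), and 3 fell, Slc38a5 (LFC -0.52), Slc16a1 (LFC -0.41) and Itm2a (LFC -0.28). Many of these transporters are also expressed in other cells of the brain.

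Of 19 genes of the hypoxia response and VEGF regulation, 1 rose with age, 3 rose and 1 fell in adult DH, and 4 rose in aged DH. Hif3a, a hypoxia-inducible factor, had an LFC of 0.79 in ageing (limma adjusted p = 0.0192) and 1.70 in adult DH (limma adjusted p = 2.91e-05). Ldha, a glycolytic enzyme, rose in DH in adult rats (LFC 0.42) and in aged rats (LFC 0.28), and in adult DH Hif1a rose (LFC 0.17) and Egln3 fell (LFC -0.22). The other 3 called in aged DH were Egln1 (LFC 0.21), Ero1a (LFC 0.17) and Pgk1 (LFC 0.12).

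The remaining vascular lists were those of other junction genes, arterial and venous genes and endothelial activation genes. Of 10 other junction genes, Lsr fell with age (LFC -0.30), F11r rose (LFC 0.19) and Cgn fell (LFC -0.51) in adult DH, and Cgn fell in aged DH (LFC -0.27). Of 7 arterial and venous genes, Bmx rose in adult DH (LFC 0.85) and Nr2f2, a venous factor, fell in aged DH (LFC -0.42). None of 4 endothelial activation genes tested was called by limma, while at an unadjusted p under 0.05 there were 1 in ageing, 2 in adult DH and 2 in aged DH. Among these was Edn1, the gene of the vasoconstrictor endothelin, with LFCs of -0.33 in adult DH (limma adjusted p = 0.146) and 0.60 in aged DH (limma adjusted p = 0.0533), and its difference between the ages of 0.93 did not pass (limma adjusted p = 0.191).

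**Figure D3:**
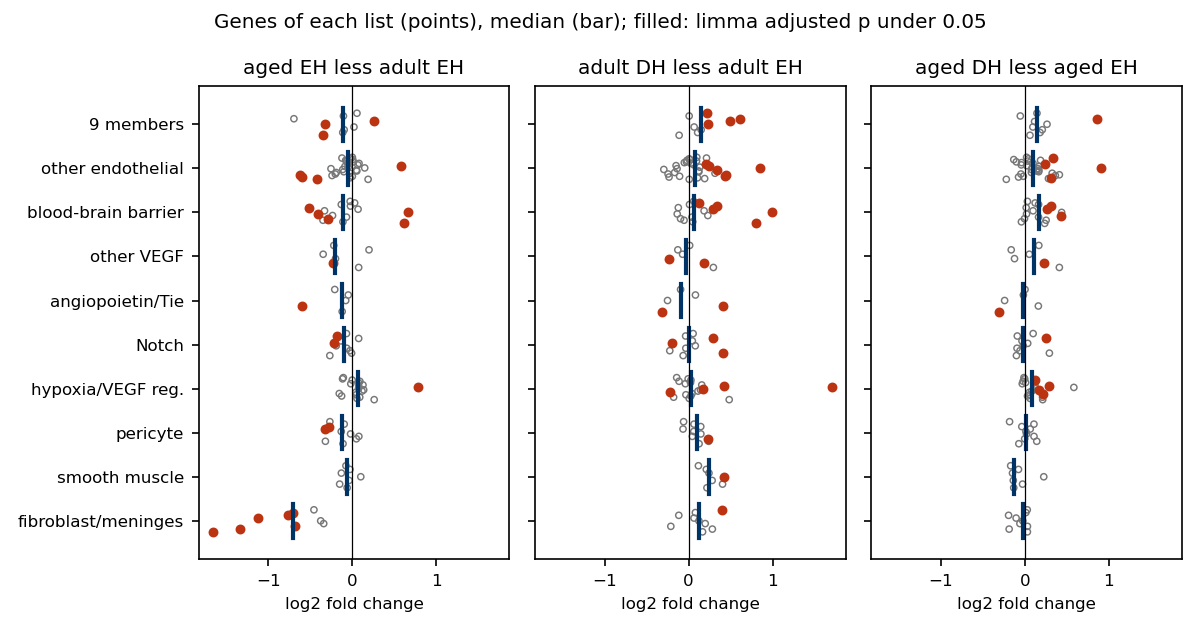
LFC (horizontal axis, log2 scale) of each gene of the lists in the 3 comparisons, one point per gene and a bar at the list median. Filled points passed a limma adjusted p of 0.05. The fibroblast and meningeal genes are shifted down in ageing, to a median of -0.71.

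Marker lists of other cells were examined beside these results, and in ageing their counts are to be read beside the 5.99% of all genes called. Of 9 fibroblast and meningeal markers tested 6 fell with age, and their summed level was 9047 to 16220 normalized counts in aged EH rats and 24930 to 29990 in adult EH rats. Col1a2, a defining marker of these cells, is listed at 0 in every library, and the reason was not tested. The summed levels thus come from the other markers of the list. Of 10 pericyte markers 2 fell with age, Pdgfrb (LFC -0.28) and Notch3 (LFC -0.32), with summed levels of 8735 to 10230 and 9950 to 12140 in aged and adult EH. Of 6 markers each, 4 fell for oligodendrocytes, with sums of 235400 to 285800 in aged EH and 264000 to 386900 in adult EH, and 2 fell for astrocytes (103800 to 126900 and 110300 to 135900). Of 6 microglia markers 2 rose (6776 to 7714 in aged EH and 5780 to 6535 in adult EH). The part of these cells in the lower Cdh5 and Kdr and the higher Notch4 was not tested.

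In DH the same counts are to be read beside 12.7% of all genes called in adult and 7.29% in aged rats. In adult DH 1 of 10 pericyte, 1 of 7 smooth muscle and 1 of 9 fibroblast and meningeal markers rose, and 1 of 6 oligodendrocyte markers fell. The smooth muscle markers summed to 19140 to 29270 in adult DH and 17590 to 24610 in adult EH. In aged rats they summed to 15440 to 22920 in DH and 16000 to 25760 in EH. Their median LFC was 0.24 in adult DH, -0.13 in aged DH and -0.35 for the difference between the ages. For that difference all 7 were below 0, while all 6 oligodendrocyte markers were above 0 (median 0.30). None of either list was called by limma for it. Of 6 red blood cell markers 2 fell in adult DH, where they summed to 6760 to 16490 against 11200 to 23560 in adult EH, and 1 fell in aged DH (7524 to 14270 against 9657 to 23730 in aged EH). In aged DH 1 astrocyte marker fell and 1 oligodendrocyte marker rose. Of the 5 choroid plexus markers none was called by limma in any comparison, with 1 at an unadjusted p under 0.05 in adult DH and 1 in aged DH. Avp rose in adult DH (LFC 0.48). The part of these cells in the higher Vegfa, Kdr, Notch4 and Pcdh12, and in the differences between the ages, was not tested.

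Pairs of the genes were also compared within groups, from rat to rat, with all rats and without aged DH replicate 6 (an alternative added after seeing the data). Pearson's r between the deviations from the group means over 20 rats was computed for 36 pairs of genes, each with a permutation test within groups (100000 permutations, two-sided). Among the 28 pairs of the 8 genes other than Vegfa, r ran from -0.24 to 0.84 with a median of 0.38, and 26 pairs were above 0. Over all 87311505 pairs of genes with a mean of at least 50, the median was -0.00065 and 43576008 pairs were above 0. With Vegfa, which many cell types make, the median over 8 pairs was -0.09. Adjusted over the 36 pairs, 4 passed on Pearson's r and 2 on Spearman's rho, all of them positive. Without aged DH replicate 6, r over the 28 pairs ran from -0.38 to 0.76 with a median of 0.24, and 20 pairs were above 0. Over all pairs of genes the median in these 19 rats was -0.00033. Of the 36 pairs, 0 passed on either measure. The median of the 8 pairs with Vegfa was then -0.23. The calls among pairs were thus lost without that rat, and no other single rat was left out for comparison.

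The closest pair was Tek and Esam, with r = 0.838 (permutation p = 0.00043, adjusted p = 0.0077) and Spearman's rho = 0.777 (permutation p = 0.00094, adjusted p = 0.017). Without the 2 rats farthest from the median of Tek, r was 0.723, and without aged DH replicate 6 it was 0.759 (permutation p = 0.0026, adjusted p = 0.069). Cldn5 and Esam had r = 0.801 (permutation p = 0.00027, adjusted p = 0.0077) and rho = 0.758 (permutation p = 0.00057, adjusted p = 0.017), and r = 0.707 without 2 rats. Without aged DH replicate 6 their r was 0.734 (permutation p = 0.0038, adjusted p = 0.069). Cdh5 with Esam (r = 0.689) and Cldn5 with Tek (r = 0.701) passed on Pearson's r and not on Spearman's rho, with permutation p adjusted to 0.13 and 0.11, and without the 2 farthest rats their r was 0.459 and 0.535. Kdr and Pcdh12 had r = 0.616 (permutation p = 0.013, adjusted p = 0.094) and rho = 0.592 (permutation p = 0.023, adjusted p = 0.16). The labels give no batch within which these relations could be repeated.

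**Figure D4:**
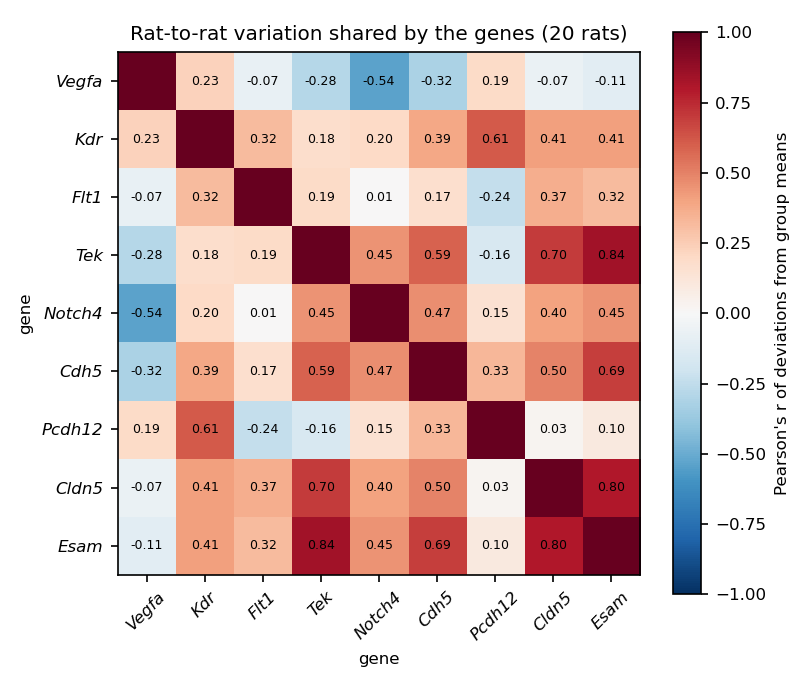
Pearson's r (colour scale and numbers) between the deviations of each pair of genes from their group means over 20 rats. The highest values are those of Esam with Tek (0.838) and with Cldn5 (0.801), and the row of Vegfa holds values from -0.54 to 0.23.

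Across 13206 genes with a mean of at least 50 normalized counts, the deviations most like the mean of the 8 genes were those of Sigirr (r = 0.864), Thsd1 (r = 0.851), Ets1 (r = 0.803), Egfl7 (r = 0.803) and Srgn (r = 0.800). The mean was taken without scaling each gene, so genes with wide deviations weigh more in it. The largest deviation was that of Pcdh12, the gene with the fewest reads, with 0.609 in aged EH replicate 1. Ets1 is an ETS factor and Egfl7 a secreted endothelial protein. Most like Vegfa were Afg3l1 (r = 0.785), Prkar1b (r = 0.782), Golga2 (r = 0.782), Sec31a (r = 0.778) and Ift52 (r = 0.769). No gene was among the 5 closest of both. Without aged DH replicate 6, only Thsd1 (r = 0.764) remained among the 5 closest to the mean of the 8 genes, beside Dpf2 (r = 0.821), Sox18 (r = 0.761), Pitpnb (r = 0.753) and Adamts1 (r = 0.743), while Ets1 had r = 0.623 and Egfl7 r = 0.639. Of the 5 closest to Vegfa, 4 remained.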

How the data were processed

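The data were tables of normalized counts from 20 poly(A) RNA libraries of SON punches, 5 rats in each of 4 groups set by the sample labels, with 1 table for each of 3 comparisons. Reads of 75 bp were aligned by the authors with STAR to assembly Rn6, and featureCounts gave the reads per gene (for these tools no version is given in the sources used here). Deposited signal values are reads per gene over a size factor from DESeq2 1.28.1, estimated within each table, so levels in different tables are on different scales. Fold changes, their standard errors and test statistics, p-values and means that the authors computed for their own comparisons stand in the same tables and were not used. The number of per-sample columns left unused is 0.

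The normalized counts were log2-transformed after adding 1, and genes with a mean of at least 10 were tested with limma 3.58.1 in R 4.3.3, with moderation that follows the mean, two-sided. Genes with a Benjamini-Hochberg adjusted p under 0.05, taken over the genes tested in a comparison, were called DEGs whatever their LFC. An LFC on this scale slightly understates the change of genes with low counts. All 9 genes found passed the filter on low values in every comparison. For the difference between the ages, each rat's value came from the DH table of its age. Whole reads were recovered from the steps of the values (100% within 0.1 read in all 30 columns), and edgeR 4.0.16 and DESeq2 1.42.0 were run on them. Since counts per gene depend on transcript length, levels were not compared between genes. Samples of a group were compared with each other, and in all 40 pairs the counts differed by more than sampling noise (chi-square per degree of freedom at least 4.85). Correlations were tested by permutation in numpy 2.4.6, with ranks from scipy 1.17.1. Figures were drawn with matplotlib 3.10.9, and scripts were tested on simulated data. Start site windows are of GRCr8, not of the assembly the authors used, so no position is tied to the counts.

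The genes and lists were chosen with earlier results of these data known. Named genes are the 9 found, for other lists at most the 4 called genes with the largest absolute LFC per comparison, marker lists by counts and ranges, and the 5 genes most like the mean of the 8 endothelial genes and most like Vegfa. Marker genes, pericyte genes, Avp and Edn1 named beyond this rule were chosen after their values were seen. Alternatives were another pseudocount (10), no filter and a mean of at least 50, median centring, quantile normalization, a replicate block, no trend, a minimum absolute LFC of 0.5, edgeR, DESeq2 and leaving out each rat. The fits of edgeR and, for the difference between the ages, DESeq2 to all 20 libraries, and the correlations without aged DH replicate 6, were added after seeing the data.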

Additional observations from a re-analysis of the deposited data

Results flagged for a closer look

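In groups of 5 rats, a rat far from the other 4 was looked for in each of the 9 genes, by the gap to its nearest neighbour relative to the whole range of the group. A total of 54 groups was examined, counted for each gene in each table. These are 36 distinct combinations of a gene and a group, since the EH rats stand in 2 tables each. The combinations share the same 20 rats and are not independent. In 3 of them, all DH groups, 1 rat stood apart, where chance gives about 1 in 20. In adult DH, replicate 5 had 1861 normalized counts of Flt1, below the 2067 to 2137 of the other rats, and 719.3 of Notch4, above their 665.2 to 678. In aged DH, replicate 6 had 486 counts of Esam, below the 651.1 to 706.7 of the others.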

How the results depend on the processing

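Each fold change kept its direction under the alternatives, apart from values near 0. The LFC of Tek in adult DH was -0.0013 with quantile normalization and -0.026 with the replicate block. When each rat was left out in turn, the LFC ran from -0.021 to 0.028 for Tek in adult DH, from -0.10 to 0.0013 for Tek in aged DH, from -0.0083 to 0.048 for Flt1 in ageing, and, for the difference between the ages, from -0.013 to 0.11 for Kdr and from -0.0061 to 0.061 for Flt1.

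The genes called numbered 921 in ageing, 1934 in adult DH and 1119 in aged DH. Without the trend they numbered 516 in ageing, 671 in aged DH and 1 for the difference between the ages. With a minimum absolute LFC of 0.5 they numbered 303, 304 and 218 in ageing, adult DH and aged DH, and of the 9 genes 0 were then called in ageing and 1 in adult DH. For the difference between the ages DESeq2 on all 20 libraries called 55 genes and 1 of the 9. In aged DH 0 of the 9 were called without the trend, 3 with DESeq2 and 4 with edgeR over 20 libraries. The cause of these shifts was not tested, apart from the filter on LFC, which removes small changes by construction.

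The replicate numbers do not pair the rats. The deviations of rats with the same number had correlations of -0.0484 to 0.124 in ageing, -0.0825 to 0.134 in adult DH and -0.0616 to 0.162 in aged DH, and not every rat correlated best with its own number. With the number as a block, 987 genes were called in adult DH, 653 in aged DH and 1 for the difference between the ages, and 2 of the 9 genes were called in adult DH. The ageing call of Notch4 was lost with the block (limma adjusted p = 0.0536).

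Leaving out 1 rat at a time gave 594 to 906 genes and 2 to 3 of the 9 called in ageing, 1463 to 1743 and 4 in adult DH, 678 to 1186 and 0 to 4 in aged DH, and 0 to 5 and 0 for the difference between the ages. Leaving out aged EH replicate 4 (599) or adult EH replicate 5 (594) moved the ageing count most, and aged EH replicate 5 (679) or aged DH replicate 5 (678) the aged DH count. For the difference between the ages 5 genes were called without aged EH replicate 6. At 45.43 to 187.3 normalized counts, Pcdh12 is the gene whose values depth limits most.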
